A study of Mus musculus with 24 samples.

Results

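Transcripts of 9 CC chemokine genes, Ccl2, Ccl3, Ccl4, Ccl5, Ccl6, Ccl7, Ccl9, Ccl17 and Ccl22, were measured by RNA sequencing in cells derived from RAW, a mouse macrophage line, before and after lipopolysaccharide (LPS). The genes were chosen by name from the deposited table of transcript counts, and they are 9 of 25160 genes in it. RefSeq identifiers were matched to gene symbols, and where a gene had several transcripts the one with the highest mean count was kept; each of the 9 had 1. All 9 passed the filter on low counts, Ccl17 through its 5 h groups, and 12213 genes were tested.

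The series holds 24 libraries in 6 groups of 4. The cells were 2 stable derivatives, one with a doxycycline-inducible Nur77 construct (the Nur77 line) and one with the same kind of construct for green fluorescent protein (the GFP line). Both lines received 50 ng/ml doxycycline for 18 h and then 500 ng/ml LPS, and were collected at 0, 1 or 5 h of LPS, so that induction with doxycycline is common to every group. Nr4a1 encodes Nur77, a nuclear receptor, and the comparison of the lines asks how its expression relates to the inflammatory response of macrophages. Each construct was present in 1 stable line, so the construct and other properties of that line cannot be told apart. Whether the 4 replicates of a group were grown apart is not in the labels, and p-values then measure only how these samples vary, which may be technical. In bulk RNA, fewer cells that express a gene and less RNA per cell cannot be told apart.

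CC chemokines are small secreted proteins that attract leukocytes through G protein-coupled receptors of the CCR family, and macrophages release many of them when LPS engages Toll-like receptor 4 and activates NF-kB, IRF and AP-1 transcription factors. Ccl22 and Ccl17 are ligands of Ccr4 and draw T helper and regulatory T cells, Ccl2 and Ccl7 are ligands of Ccr2 and draw monocytes, Ccl3, Ccl4 and Ccl5 draw monocytes and T cells, and Ccl6 and Ccl9 are rodent chemokines that act on Ccr1. In the mouse most of these genes lie in clusters of neighbours.

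Libraries held 8137306 to 29279140 counts over genes. Within 5 of the groups the lowest correlation between libraries was 0.988, and in the sixth, the Nur77 line at 1 h, it was 0.976. There the 3 pairs with replicate 2 correlated at 0.976 to 0.982 and the 3 other pairs at 0.989 to 0.992. In this group Ccl2 was at 403 CPM (counts scaled to a common library size of 1e+06) in replicate 2 and at 61.2 to 67.9 CPM in the other 3 libraries, Ccl7 at 18.6 against 1.26 to 2.88 CPM, Ccl3 at 1958 against 1074 to 1182 CPM and Ccl9 at 1995 against 1409 to 1491 CPM. Ccl4 in that library (558 CPM) lay within the range of the other 3, Ccl5 was the lowest of the 4 at 10.4 CPM and Ccl22 the highest at 13.8 CPM. Where tests of the 9 genes between the lines rest on this group, those given are given with and without that library. Those not given passed in neither case.

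Nr4a1 itself was at 3.12, 2.53, 3.24 and 3.39 CPM before LPS in the GFP libraries and at 2.74, 3.71, 3.27 and 3.44 CPM in those labelled Nur77 (log2 0.09, SE 0.39, edgeR adjusted p = 0.885). At 1 h it was at 52.0, 63.2, 65.1 and 66.8 CPM in the GFP libraries and at 42.4, 9.29, 40.0 and 39.8 CPM in the Nur77 libraries, lower in the latter (log2 -0.91, SE 0.25, adjusted p = 0.00481, and -0.60 with 1.63e-06 without replicate 2). In a fit of the 8 libraries compared that call was lost (adjusted p = 0.0822). At 5 h the values were 3.13, 3.16, 3.09 and 2.15 CPM against 4.52, 5.11, 5.20 and 4.74 CPM without overlap (log2 0.73, SE 0.37, adjusted p = 0.113). This higher level passed the test by DESeq2 (adjusted p = 0.0378), in a fit of the 8 libraries (0.000362) and without replicate 2 of the 1 h Nur77 group (3.51e-05). So Nr4a1 counts were not higher throughout in the line labelled Nur77. The construct's sequence is not part of the sources used here, whether its transcript was counted was not tested, and the name Nur77 line stands throughout for the libraries labelled so. Of 15 macrophage genes (such as Lyz2, Cd68 and Csf1r), 14 were above 1 CPM in each group and Mertk was not, at 0.0280 to 0.123 CPM; their summed level was 14432 to 15932 CPM in the GFP libraries and 6911 to 9613 CPM in the Nur77 libraries. Epithelial markers were at 0, and lymphocyte, fibroblast and neutrophil markers summed to at most 0.547, 4.14 and 4.64 CPM in a library. The lower sum of macrophage genes moved with the line, and its part in the chemokine differences was not tested.

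In the GRCm38 genome (mm10), 7 of the genes are on chromosome 11 and a pair on chromosome 8. Ccl2 (NM_011333, 82035571 to 82037453, plus strand) lies 8.26 kb from Ccl7 (NM_013654, 82045712 to 82047525, plus strand). Then, 1478.25 kb further along, follow Ccl5 (NM_013653, 83525778 to 83530518, minus strand), Ccl9 (NM_011338, 83572919 to 83578636, minus strand), Ccl6 (NM_009139, 83587882 to 83593087, minus strand), Ccl3 (NM_011337, 83647844 to 83649355, minus strand) and Ccl4 (NM_013652, 83662584 to 83664683, plus strand). Ccl22 (NM_009137, 94745590 to 94751699, plus strand) and Ccl17 (NM_011332, 94810453 to 94812036, plus strand) lie 58.75 kb apart on chromosome 8, with Cx3cl1 between them. Ccl6 and Ccl9 have 4 exons each and the other 7 genes 3. The annotated span of Ccl4 in RefSeq (83648624 to 83664683) overlaps Ccl3 on the opposite strand, that of Ccl6 overlaps the long noncoding gene E230016K23Rik (369 counts over all libraries), and the sources used here do not say whether counting used the strand.

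The bases upstream of the start are shown for Ccl22 with Ccl17 and Ccl9 with Ccl6, the pairs of neighbours with both genes in the table used, because the members of each pair differed in level or in their difference between the lines at 5 h. They come from the RefSeq promoter table of GRCm38.p6, which held 5 of the 9 genes (Ccl3, Ccl6, Ccl9, Ccl17 and Ccl22). Each runs 5′ to 3′ on the strand of the gene, from base -250 to base -1 before the start in that table, except Ccl22, which ends at base -95 where the GENCODE transcript starts. Capitals mark matches to the motifs searched.
Ccl22, chr8:94745434-94745589, plus strand: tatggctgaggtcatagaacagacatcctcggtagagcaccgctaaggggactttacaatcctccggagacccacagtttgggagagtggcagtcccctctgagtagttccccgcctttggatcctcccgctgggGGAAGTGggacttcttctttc
Ccl17, chr8:94810203-94810452, plus strand: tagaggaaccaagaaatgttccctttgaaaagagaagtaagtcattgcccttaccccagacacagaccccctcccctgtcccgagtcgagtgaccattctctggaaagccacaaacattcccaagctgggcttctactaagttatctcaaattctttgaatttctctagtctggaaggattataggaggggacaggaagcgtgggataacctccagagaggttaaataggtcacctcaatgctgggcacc
Ccl9, chr11:83578637-83578886, minus strand: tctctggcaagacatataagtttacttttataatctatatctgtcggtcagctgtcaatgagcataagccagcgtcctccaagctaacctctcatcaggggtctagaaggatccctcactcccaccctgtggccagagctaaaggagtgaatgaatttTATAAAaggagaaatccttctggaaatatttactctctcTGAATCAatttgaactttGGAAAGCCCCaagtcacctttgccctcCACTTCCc
Ccl6, chr11:83593088-83593337, minus strand: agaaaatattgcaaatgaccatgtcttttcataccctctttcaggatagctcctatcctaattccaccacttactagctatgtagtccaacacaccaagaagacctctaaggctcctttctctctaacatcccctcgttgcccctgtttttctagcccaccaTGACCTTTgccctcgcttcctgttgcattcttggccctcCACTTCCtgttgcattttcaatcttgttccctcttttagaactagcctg
The motifs were the NF-kB consensus, the AP-1 site TGANTCA, the IRF element (GAAA, any 2 bases, GAAA), the site of Nur77 monomers (NBRE) AAAGGTCA and the ETS core GGAAGTG, each on both strands, and the TATA box TATAAA on the gene's strand; the ETS core was added after the sequences were read. Upstream of Ccl9 there was a TATA box at -92 to -87, an AP-1 match at -53 to -47, an NF-kB match at -35 to -26 and an ETS match at -8 to -2. Upstream of Ccl6 there was an NBRE match at -88 to -81 and an ETS match at -49 to -43, both on the opposite strand. Ccl22 held an ETS match at -115 to -109, and these letters were not in the windows of Ccl17 and Ccl3. Among 32851 promoters with 250 upstream bases, 3.899% held the NF-kB consensus, 6.749% the AP-1 site, 2.977% the IRF element, 1.336% the NBRE, 8.554% the ETS core and 7.592% the TATA box. These matches did not overlap each other, and a match is a description of letters, not a measured binding site.

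LPS raised the chemokine transcripts in both lines, and in GFP cells the rise by 5 h ranged from 1.78-fold for Ccl6 to 1191-fold for Ccl22 among the 8 genes other than Ccl17. Ccl17, which passed the filter only through the groups where it was high, is left out of the counts and medians given next. Of the 8 other genes, 7 rose between 0 and 1 h in the GFP line (17.4% of all genes tested were called, 9.74% as higher) and 8 rose between 0 and 5 h (62.6% called, 30.6% higher). In the Nur77 line 7 rose by 1 h (44.3% called, 22.5% higher) and 8 by 5 h (66.6% called, 32.5% higher). The calls rest on edgeR's quasi-likelihood test, with a threshold of 0.05 on p-values adjusted by Benjamini-Hochberg over all genes. Their median log2 fold change at 5 h was 6.17 in GFP cells and 6.19 in Nur77 cells, beside -0.02 and -0.03 over all genes tested. From 1 to 5 h, 8 of 8 rose further in GFP cells (55.2% called, 27.5% higher) and 7 of 8 in Nur77 cells (55.5% called, 26.9% higher), the exception being Ccl4.

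**Figure D1:**
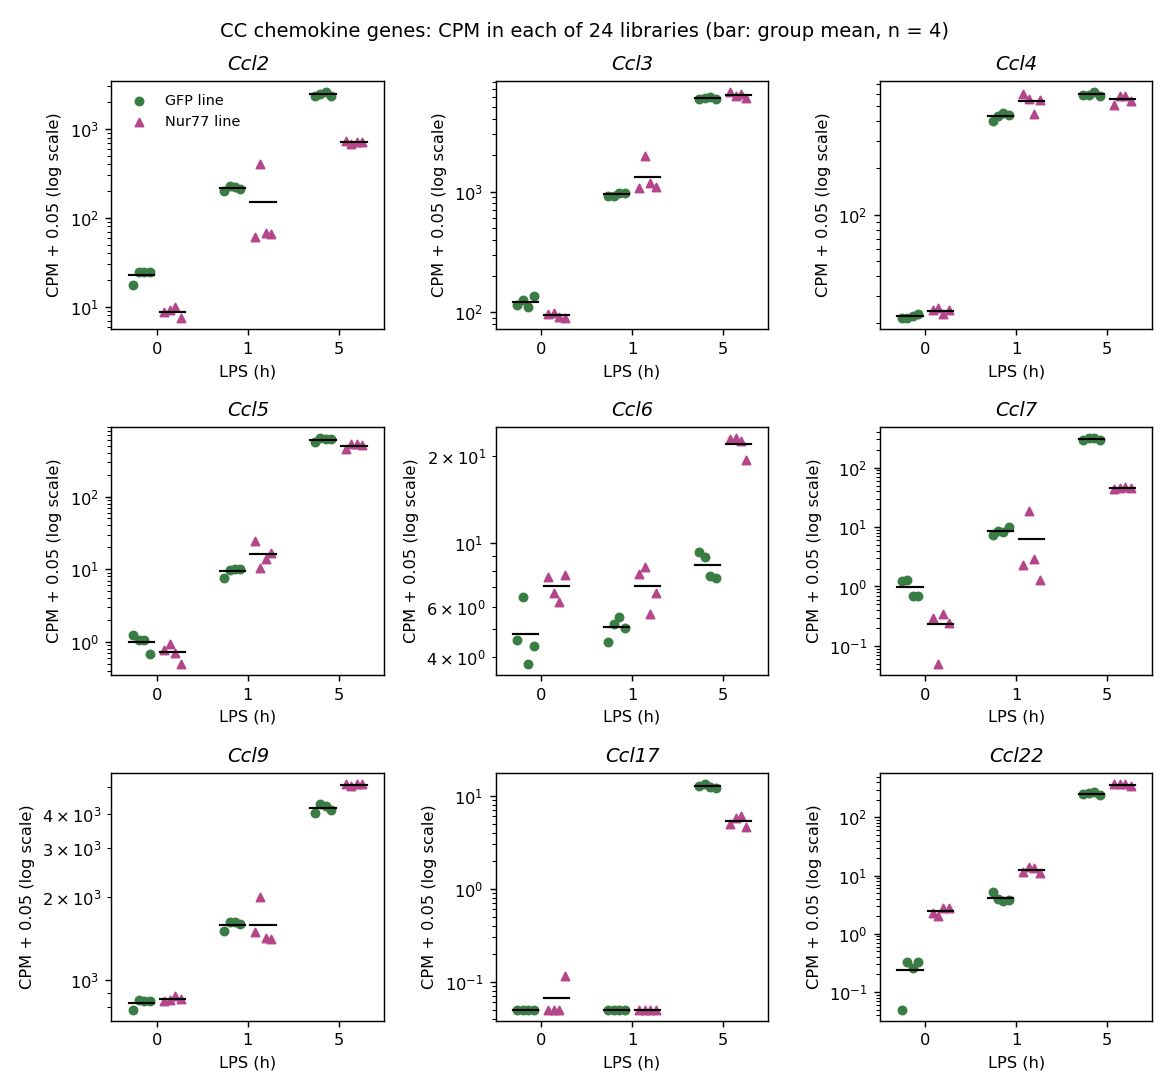
Levels of the 9 CC chemokine genes in each of the 24 libraries, as CPM plus 0.05 on a log axis, against hours of LPS. Circles are GFP libraries, triangles Nur77 libraries and bars the means of 4; replicate 2 of the Nur77 line at 1 h is the high triangle for Ccl2 (403 CPM), Ccl3 (1958 CPM), Ccl7 (18.6 CPM) and Ccl9 (1995 CPM).

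Between the lines the 9 genes did not move one way. Before LPS, 2 were higher and 2 lower in Nur77 cells (39.8% of all genes tested were called, 20.2% higher and 19.7% lower). At 1 h, 5 were higher and 0 lower (51.2% called, 26.5% higher and 24.8% lower), with 0 lower also at an unadjusted p under 0.05. DESeq2 called 0 lower as well, but it gave no adjusted p for Ccl2 and so could not call that gene. Without replicate 2 of the Nur77 line at 1 h, 5 were higher and 3 lower. At 5 h, 3 were higher (Ccl6, Ccl9 and Ccl22) and 3 lower (Ccl2, Ccl7 and Ccl17), where 46.4% of all genes were called, 21.9% higher and 24.4% lower. The libraries of the lines did not overlap for 4, 4 and 8 of the 9 genes at 0, 1 and 5 h, beside 41.2%, 35.1% and 51.4% of all genes.

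**Figure D2:**
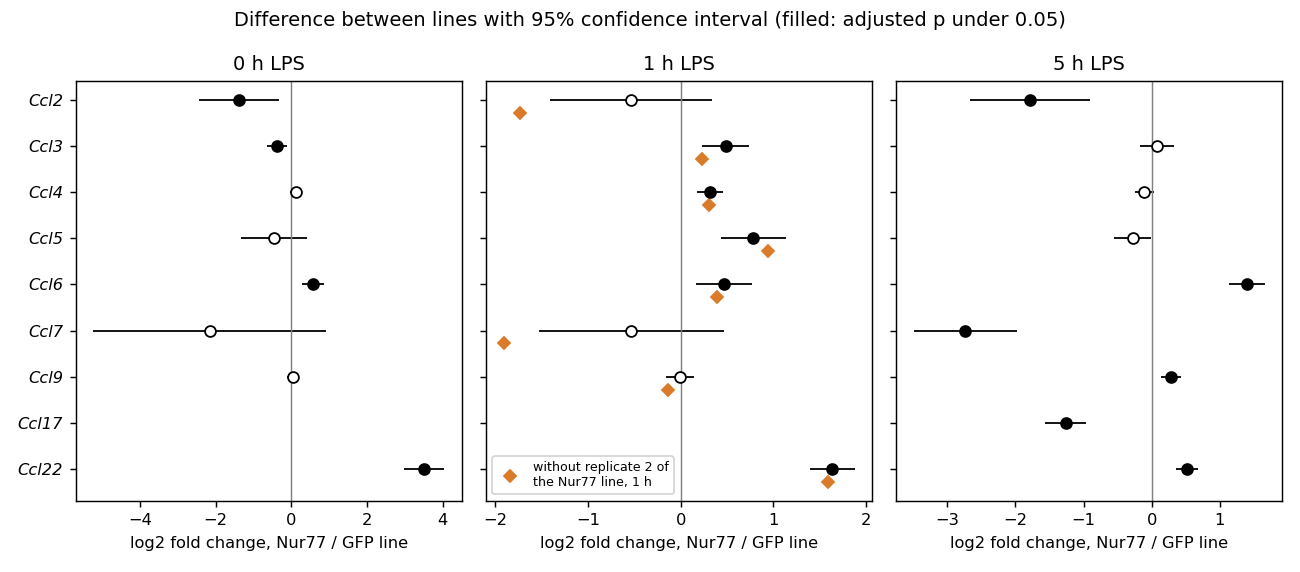
Log2 fold change of each gene in the Nur77 line against the GFP line at 0, 1 and 5 h of LPS, with its 95% confidence interval; filled circles have an adjusted p under 0.05. Diamonds at 1 h leave out replicate 2 of the Nur77 line, where Ccl2 moves from -0.53 to -1.73 and Ccl7 from -0.53 to -1.91; Ccl17 is shown at 5 h, where it was measured in both lines.

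Ccl22, the Ccr4 ligand also known as macrophage-derived chemokine, was higher in Nur77 cells at the 3 times, with a fold difference that narrowed as LPS went on. Before LPS it was at 0, 0.274, 0.210 and 0.271 CPM in the GFP libraries (15 counts in all) and at 2.26, 1.99, 2.68 and 2.72 CPM in the Nur77 libraries (144 counts). The difference was 11.4-fold, a log2 fold change of 3.51 (SE 0.26, edgeR adjusted p = 4.72e-11), and each Nur77 library lay above each GFP library, with few counts behind the GFP values. At 1 h the GFP libraries were at 5.10, 3.87, 3.57 and 3.81 CPM and the Nur77 libraries at 11.6, 13.8, 13.2 and 10.9 CPM. This was a 3.11-fold difference (log2 1.64, SE 0.12, adjusted p = 1.82e-11), or 1.59 when replicate 2 of the Nur77 line was left out (adjusted p = 7.63e-12), again with no overlap. By 5 h the GFP libraries had reached 248, 260, 275 and 238 CPM and the Nur77 libraries 375, 367, 368 and 349 CPM, a 1.43-fold difference (log2 0.52, SE 0.08, adjusted p = 6.39e-06).

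On the log2 scale, though not in CPM, the rise of Ccl22 after LPS was larger in the line that began lower. The rises from 0 h in GFP cells rest on the 15 counts of that group. From 0 to 5 h it rose by 10.22 on the log2 scale in GFP cells and by 7.23 in Nur77 cells, and the difference of these rises was -2.99 (SE 0.28, edgeR adjusted p = 6.6e-08). From 0 to 1 h the difference of the rises was -1.87 (SE 0.32, adjusted p = 0.00155), and from 1 to 5 h it was -1.12 (SE 0.14, adjusted p = 9.13e-06). When replicate 2 of the 1 h Nur77 group was left out, the latter 2 differences were -1.91 (adjusted p = 0.000506) and -1.08 (adjusted p = 2.31e-06). Ccl22 was the 1 member whose response differed between the lines in each of these 3 tests.

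Ccl17, the other Ccr4 ligand and the neighbour of Ccl22, was measured after 5 h of LPS and hardly before. It had 0 counts in the 8 GFP libraries at 0 and 1 h and in the 4 Nur77 libraries at 1 h, and 1 count in 1 Nur77 library at 0 h. At 5 h the GFP libraries were at 12.8, 13.4, 12.5 and 12.02 CPM (968 counts) and the Nur77 libraries at 4.97, 5.68, 6.01 and 4.56 CPM (342 counts), without overlap. Ccl17 was thus lower in Nur77 cells at 5 h, with a log2 fold change of -1.26 (SE 0.14, edgeR adjusted p = 1.71e-06), while Ccl22 was higher. Against a floor of 3 counts over the group, it was at least 308-fold higher at 5 h than at 0 h in GFP cells, at least 253-fold higher than at 1 h, and in Nur77 cells at least 128-fold higher than at 1 h. The ratio of 5 h to 0 h in Nur77 cells was 312, with an exact 95% counting interval from 55.6 to 12361 because it rests on the single count.

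Ccl2, also called monocyte chemoattractant protein 1, was lower in the Nur77 line before LPS and at 5 h. At 0 h the GFP libraries were at 17.4, 24.6, 24.8 and 24.3 CPM and the Nur77 libraries at 8.62, 9.20, 9.87 and 7.46 CPM, with no overlap. The log2 fold change was -1.38 (SE 0.51, edgeR adjusted p = 0.0362), and it lost its call when 7 of the 8 libraries compared were left out singly (adjusted p up to 0.0784), the exception being replicate 1 of the GFP line, and with no filter on low counts (adjusted p = 0.0563). This test uses a spread estimated over the 24 libraries, and without replicate 2 of the Nur77 line at 1 h the same log2 fold change, -1.38, had an adjusted p of 1.46e-12.

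After 1 h of LPS Ccl2 had risen to 202, 229, 221 and 210 CPM in GFP cells, and to 61.2, 67.9 and 65.4 CPM in 3 Nur77 libraries, with 403 CPM in replicate 2. The difference between the lines was -0.53 (adjusted p = 0.302) over the 8 libraries and -1.73 (adjusted p = 1.04e-15) without replicate 2. The difference of the rises from 0 to 1 h even changed sign, from 0.85 (adjusted p = 0.483) to -0.35 (adjusted p = 0.142), and passed the test in neither case. At 5 h the GFP libraries stood at 2372, 2482, 2578 and 2346 CPM and the Nur77 libraries at 731, 684, 710 and 711 CPM. This 3.45-fold lower level in Nur77 cells (log2 -1.79, SE 0.42, adjusted p = 0.00181) was far outside the spread within either group. The rise from 0 to 5 h, 6.74 in GFP and 6.33 in Nur77 cells on the log2 scale, gave a difference between the lines of -0.40 that missed the threshold (SE 0.65, adjusted p = 0.777) and passed it without replicate 2 of the Nur77 line at 1 h (-0.40, adjusted p = 0.0212).

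Ccl7, which encodes monocyte chemoattractant protein 3 and starts 8.26 kb after Ccl2 ends, showed the largest line difference of the 9 genes at 5 h. The GFP libraries were at 287, 315, 314 and 291 CPM and the Nur77 libraries at 44.6, 45.0, 46.6 and 45.3 CPM. Nur77 cells were 6.65-fold lower (log2 -2.73, SE 0.36, edgeR adjusted p = 3.63e-06), and the values within each line differed by little. Before LPS Ccl7 was near the limit of detection, with 1.18, 1.23, 0.631 and 0.632 CPM in GFP libraries (61 counts) and 0.242, 0, 0.297 and 0.195 CPM in Nur77 libraries (11 counts). Although the groups did not overlap, the log2 fold change of -2.15 did not pass the test (SE 1.47, adjusted p = 0.267); it passed without replicate 2 of the Nur77 line at 1 h (adjusted p = 0.000251) and with the DESeq2 test (adjusted p = 0.00621).

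At 1 h Ccl7 was at 7.34, 8.69, 8.19 and 9.80 CPM in GFP cells and at 2.29, 18.6, 2.88 and 1.26 CPM in Nur77 cells. As for Ccl2, the second of these Nur77 libraries decided the result, with a log2 fold change of -0.53 with it (adjusted p = 0.37) and -1.91 without it (adjusted p = 5.44e-10). The rise from 1 to 5 h was smaller in Nur77 cells, by -2.20 on the log2 scale (SE 0.60, adjusted p = 0.0305) over all libraries and by -0.82 (adjusted p = 0.00823) without that library. This call was lost by the DESeq2 test (adjusted p = 0.0539), with no filter (0.0517), in a fit of the 4 groups compared alone (0.105), and without any of GFP 1 h replicates 2 and 3, GFP 5 h replicates 2 and 3 and Nur77 5 h replicates 2 and 4 (adjusted p up to 0.0568).

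Ccl3, the macrophage inflammatory protein 1-alpha gene and a ligand of Ccr1, reached the highest level of the 9 genes and ended at about the same level in the lines. At 0 h it was at 114, 127, 110 and 137 CPM in GFP cells and at 97.2, 97.9, 91.9 and 89.9 CPM in Nur77 cells, 1.30-fold lower in the latter (log2 -0.37, SE 0.13, edgeR adjusted p = 0.0208). That call was lost without replicate 4 of the GFP line at 0 h (adjusted p = 0.0734). At 1 h the order was the reverse, with 922, 926, 973 and 964 CPM in GFP libraries and 1074, 1958, 1182 and 1082 CPM in Nur77 libraries. The log2 fold change was 0.48 (SE 0.12, adjusted p = 0.00216), or 0.23 (adjusted p = 0.00163) without replicate 2, a shift with no overlap either way. At 5 h the libraries overlapped, at 5876, 5961, 6041 and 5823 CPM in GFP cells and 6620, 6159, 6371 and 5920 CPM in Nur77 cells (log2 0.08, 95% confidence interval -0.172 to 0.334, adjusted p = 0.616). The rise from 0 to 1 h was larger in Nur77 cells by 0.86 on the log2 scale (SE 0.18, adjusted p = 0.0124), and by 0.61 (adjusted p = 2.58e-05) without replicate 2; in a fit of the 4 groups compared alone the call was lost (adjusted p = 0.0765).

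Ccl4, encoding macrophage inflammatory protein 1-beta, had most of its rise by 1 h. It rose by 4.29 on the log2 scale by 1 h in GFP cells and by 4.49 in Nur77 cells. From 1 to 5 h it went from 401, 433, 456 and 438 to 592, 594, 617 and 588 CPM in GFP cells, a further 0.47 on the log2 scale (SE 0.07, edgeR adjusted p = 1.88e-06). In Nur77 cells it was already at 605, 558, 447 and 547 CPM at 1 h and stood at 512, 583, 582 and 546 CPM at 5 h, which overlapped (log2 0.04, adjusted p = 0.609). The difference of these later changes was -0.42 (SE 0.10, adjusted p = 0.00622), or -0.41 when replicate 2 was left out (adjusted p = 0.00424), and the call was lost in a fit of the 4 groups compared alone (adjusted p = 0.0533). Between the lines Ccl4 was higher in Nur77 cells at 1 h (log2 0.32, SE 0.07, adjusted p = 0.000351, and 0.30 with 0.00064 without replicate 2) with overlapping libraries. It missed the threshold at 0 h (0.12, 95% confidence interval -0.0354 to 0.279, adjusted p = 0.219). At 5 h each Nur77 library was below each GFP library, but the log2 fold change of -0.11 (95% confidence interval -0.244 to 0.0331) missed it too (adjusted p = 0.207), and passed in a fit of the 8 libraries compared (adjusted p = 0.0317).

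Ccl5, the T cell and monocyte attractant once named RANTES, rose by 1 h and rose further by 5 h. Its level before LPS was 1.18, 1.03, 1.01 and 0.632 CPM in GFP libraries (67 counts) and 0.725, 0.893, 0.654 and 0.454 CPM in Nur77 libraries (40 counts). These libraries overlapped (log2 -0.46, SE 0.42, edgeR adjusted p = 0.416), and the rises from 0 h rest on these few counts. At 1 h the GFP libraries were at 7.59, 9.88, 10.1 and 10.03 CPM and the Nur77 libraries at 24.1, 10.4, 13.8 and 16.9 CPM. Nur77 cells were 1.72-fold higher at this time (log2 0.79, SE 0.17, adjusted p = 0.000484, and 0.94 with 7.64e-06 without replicate 2), with the Nur77 libraries spread over a wider range and above the GFP libraries.

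At 5 h Ccl5 was at 565, 634, 615 and 608 CPM in GFP cells and 447, 525, 524 and 506 CPM in Nur77 cells. Here the Nur77 libraries were the lower ones and did not overlap the others, but the log2 fold change of -0.28 (SE 0.13) missed the threshold in the fit of 24 libraries (adjusted p = 0.0927). It passed in a fit of the 8 libraries compared (adjusted p = 0.000108) and without replicate 1 or replicate 2 of the Nur77 line at 1 h (adjusted p = 0.0107 and 0.0224). From 1 to 5 h the rise was 5.99 in GFP and 4.93 in Nur77 cells on the log2 scale, a difference of -1.06 (SE 0.21, adjusted p = 0.003), or -1.22 (adjusted p = 2.89e-05) without replicate 2. The rise from 0 to 1 h was 1.24 larger in Nur77 cells on this scale but did not pass the test (adjusted p = 0.133, and 1.40 with 0.0704 without replicate 2). It passed without replicate 1 of the Nur77 line at 1 h (adjusted p = 0.0485) and by DESeq2 (adjusted p = 0.0281).

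Ccl9, or macrophage inflammatory protein 1-gamma, was abundant before LPS. It was at 783, 849, 842 and 839 CPM in GFP cells and 843, 849, 875 and 857 CPM in Nur77 cells at 0 h, which overlapped (log2 0.05, 95% confidence interval -0.104 to 0.199, edgeR adjusted p = 0.648). LPS raised it 5.05-fold by 5 h in GFP cells and 5.95-fold in Nur77 cells. At 5 h the GFP libraries were at 4028, 4323, 4257 and 4137 CPM and the Nur77 libraries at 5106, 5046, 5110 and 5128 CPM, so that each Nur77 library was above each GFP library (log2 0.28, SE 0.07, adjusted p = 0.00257). At 1 h the difference was -0.01 on the log2 scale (adjusted p = 0.928) with every library, while without replicate 2 Nur77 cells were lower (-0.14, adjusted p = 0.00631). The larger rise from 0 to 5 h in Nur77 cells, by 0.24 on the log2 scale, missed the threshold with every library (adjusted p = 0.182) and passed it without that library (adjusted p = 0.00358). The same held from 1 to 5 h, where the difference was 0.29 (adjusted p = 0.0944) with that library and 0.43 (adjusted p = 6.81e-06) without it.

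Ccl6, whose gene lies 9.24 kb from Ccl9, was low and responded late. In GFP cells it was at 4.56, 6.43, 3.75 and 4.34 CPM before LPS, at 4.48, 5.19, 5.49 and 4.99 CPM at 1 h and at 9.27, 8.86, 7.64 and 7.50 CPM at 5 h. In Nur77 cells the libraries were at 7.57, 6.66, 6.18 and 7.65 CPM at 0 h, at 7.75, 8.21, 5.58 and 6.63 CPM at 1 h and at 22.9, 23.1, 22.6 and 19.4 CPM at 5 h. Nur77 cells were higher before LPS (log2 0.58, SE 0.15, edgeR adjusted p = 0.00259) and at 1 h (0.47, SE 0.15, adjusted p = 0.00933, and 0.39 with 0.0321 without replicate 2), with libraries that overlapped at 0 h and lay close at 1 h (5.49 CPM in the highest GFP and 5.58 CPM in the lowest Nur77 library). At 5 h the lines were well apart, 2.65-fold higher in Nur77 cells (log2 1.40, SE 0.13, adjusted p = 1.24e-09). No change was detected from 0 to 1 h in GFP cells (log2 0.11, adjusted p = 0.724) or Nur77 cells (0.01, adjusted p = 0.977). The rise from 0 to 5 h was 0.83 in GFP cells and 1.66 in Nur77 cells on the log2 scale, and the difference of 0.83 passed the test (SE 0.19, adjusted p = 0.00698), as did that of the rises from 1 to 5 h (0.93, SE 0.19, adjusted p = 0.00321, and 1.01 with 0.000631 without replicate 2 of the Nur77 line at 1 h).

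**Figure D3:**
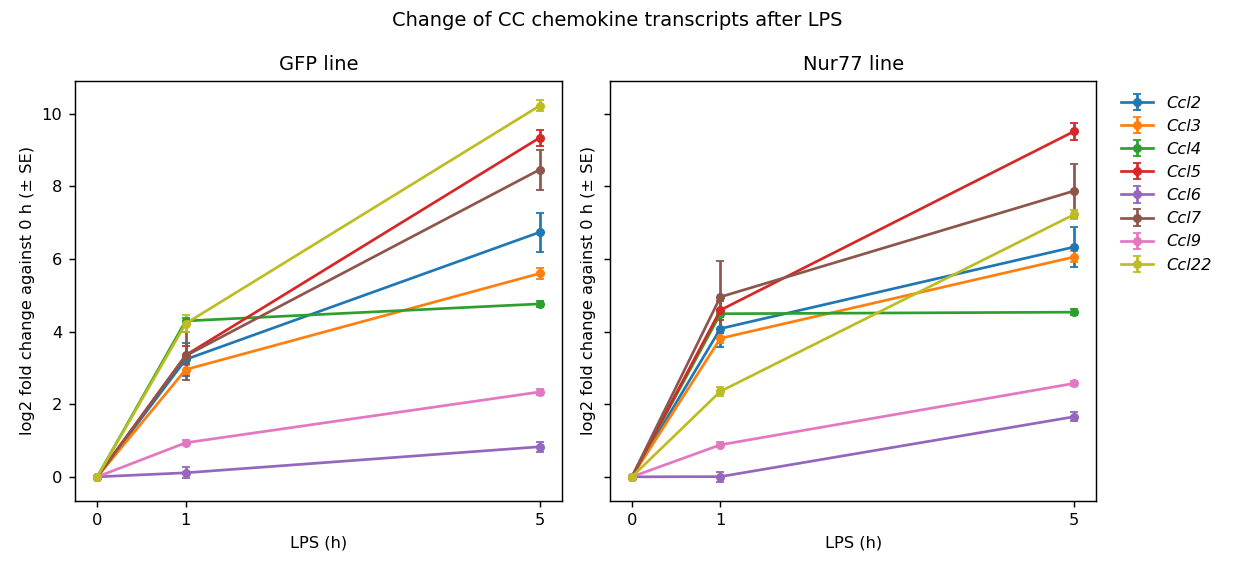
Log2 fold change of 8 of the genes against 0 h in each line after 1 and 5 h of LPS, with standard errors; Ccl17 is left out because it had at most 1 count before LPS. Ccl22 rises by 10.22 in GFP cells and 7.23 in Nur77 cells, Ccl4 is nearly flat between 1 and 5 h in Nur77 cells, and Ccl6 does not move by 1 h.

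The differences of the LPS responses between the lines passed the test for 2 members from 0 to 1 h (1 larger and 1 smaller in Nur77 cells, beside 1.18% of all genes called, 0.63% larger and 0.549% smaller). From 0 to 5 h it did so for 2 (1 and 1, beside 7.94% of all genes, 2.81% larger and 5.13% smaller), and from 1 to 5 h for 5 (1 larger and 4 smaller, beside 6.61%, 2.59% larger and 4.02% smaller). The 3 tests share libraries. Without replicate 2 of the Nur77 line at 1 h, the count from 0 to 5 h was 5, with Ccl2, Ccl3 and Ccl9 added. It was 6 in a fit of the 4 groups compared alone, with Ccl4 added too. Calls over all genes rose as well, from 970 to 1672 and 2084 in these 2 settings. From 1 to 5 h the count of members was 6 without that replicate, with Ccl9 added, and calls over all genes went from 807 to 1262.

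The make-up of the chemokine transcripts changed with LPS. To compare genes, CPM was divided by transcript length in kb and summed over the 9. Before LPS Ccl9 held 54.9% ± 1.65 of this sum in GFP cells and 61.6% ± 1.15 in Nur77 cells (SD, n = 4), and Ccl3 31.7% ± 1.99 and 26.6% ± 0.952. At 1 h Ccl3 held 45.5% ± 0.862 and 51.9% ± 3.82, and Ccl4 24.1% ± 0.476 and 25.7% ± 5.75, its highest share. At 5 h Ccl3 held 52.6% ± 0.535 in GFP cells and 64.0% ± 1.39 in Nur77 cells, while Ccl2 held 20.4% ± 0.401 and 6.83% ± 0.205. These ranges did not overlap between the lines at 5 h (52.2 to 53.3% against 62.7 to 65.9% for Ccl3, and 20.04 to 21.0% against 6.63 to 7.10% for Ccl2). Ccl5 held 7.74% ± 0.284 and 7.37% ± 0.648 at 5 h, and Ccl22 rose to 0.782% ± 0.0308 and 1.29% ± 0.0133. The 9 genes together took 0.109%, 0.324% and 1.30% of the counts of a library at 0, 1 and 5 h in GFP cells and 0.112%, 0.354% and 1.23% in Nur77 cells.

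**Figure D4:**
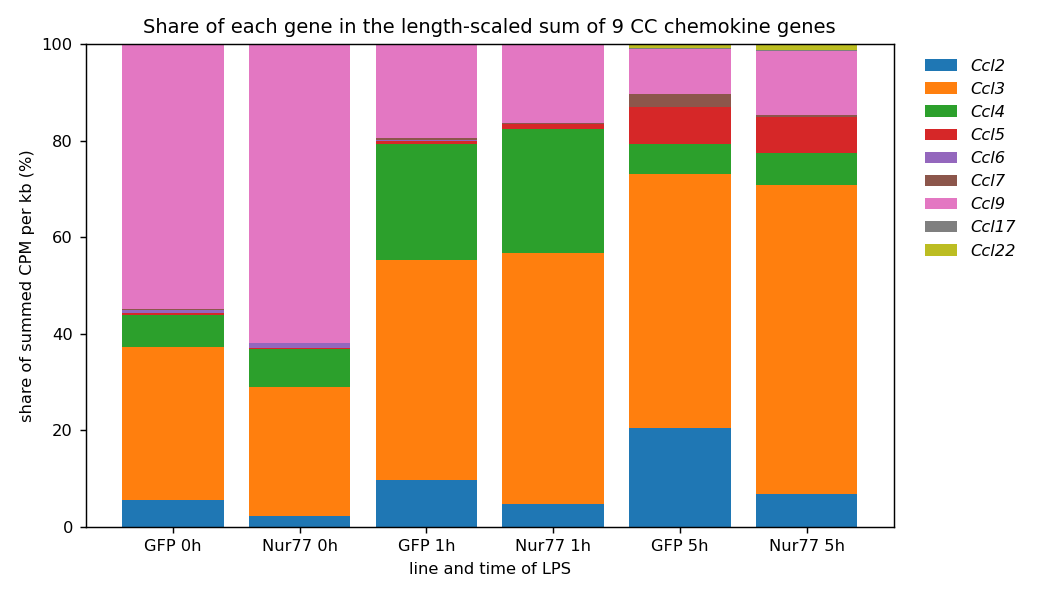
Share of each gene in the summed CPM per kb of the 9 genes, as the mean of 4 libraries in each line and time. Ccl9 makes up most of the bar before LPS and Ccl3 most of it at 5 h, and the Ccl2 part at 5 h is 20.4% in GFP cells and 6.83% in Nur77 cells.

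Within the pairs of neighbours, the ratio of the transcripts at 5 h stood apart between the lines. Per kb of transcript, Ccl22 to Ccl17 was 4.48, 4.50, 5.09 and 4.58 in GFP libraries and 17.5, 15.0, 14.2 and 17.8 in Nur77 libraries. Ccl2 to Ccl7 was 7.98 ± 0.165 in GFP and 15.4 ± 0.552 in Nur77 libraries (SD, n = 4), so that Ccl7 was lower relative to Ccl2 in Nur77 cells although both were lower. Ccl9 to Ccl6 was 243 ± 27.9 and 112 ± 10.2. The last pair, Ccl3 to Ccl4, was the closest between the lines, at 8.54 ± 0.0860 and 9.75 ± 0.929, and over time in GFP cells it was 4.78 ± 0.445 at 0 h, 1.89 ± 0.0662 at 1 h and 8.54 at 5 h. These ratios are descriptions of the libraries and carry no test.

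**Figure D5:**
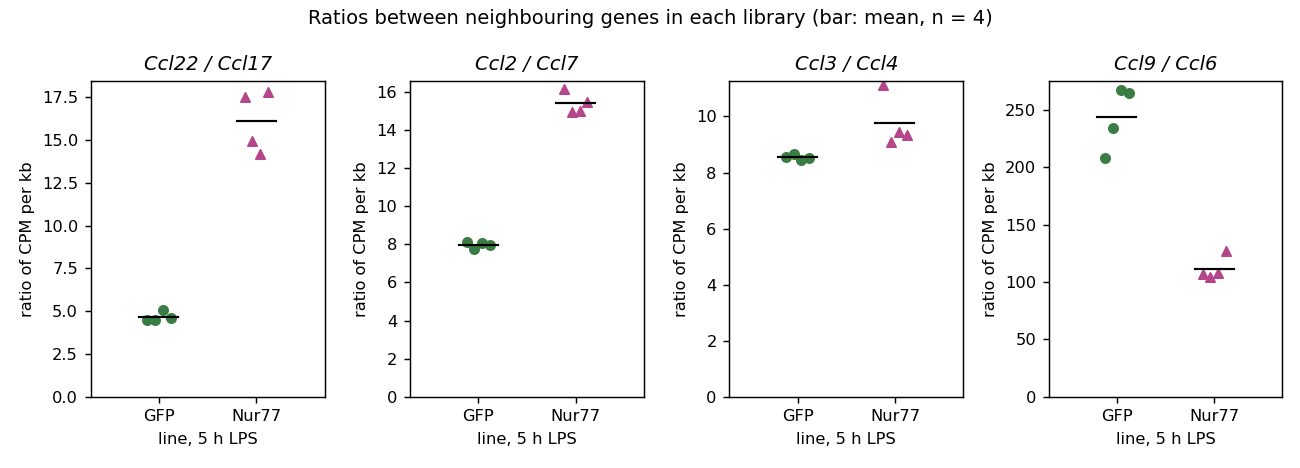
Ratio of CPM per kb between neighbouring genes in each library after 5 h of LPS, in the GFP line (circles) and the Nur77 line (triangles); bars are means of 4 and each axis starts at 0. Ccl22 to Ccl17 is 4.48 to 5.09 in GFP and 14.2 to 17.8 in Nur77 libraries, Ccl9 to Ccl6 is lower in Nur77 libraries, and Ccl3 to Ccl4 differs least.

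Ordered by mean level over the 6 groups, several neighbouring groups of a gene could not be separated. For Ccl2 and Ccl7 the Nur77 and GFP lines at 1 h overlapped through replicate 2, and the other neighbours in the order did not. Ccl22 was the 1 gene with no overlap between any neighbours in its order (GFP 0 h, Nur77 0 h, GFP 1 h, Nur77 1 h, GFP 5 h, Nur77 5 h). For Ccl6 the order was GFP 0 h, GFP 1 h, Nur77 0 h, Nur77 1 h, GFP 5 h and Nur77 5 h, with overlap between GFP 0 h and GFP 1 h, between Nur77 0 h and Nur77 1 h and between Nur77 1 h and GFP 5 h.

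The receptors of these ligands were examined from a list of 15 CC receptor genes, 6 of which were expressed highly enough to test. The 6 include Ccr9, which passed the filter only through the GFP line at 5 h, where it was high. Its part in the counts and the median of the 6 is therefore no support for a difference. At 0 h, 1 was higher and 2 lower in Nur77 cells, and at 1 h and at 5 h, 1 was higher and 3 lower. Over all genes tested, 39.8%, 51.2% and 46.4% were called at 0, 1 and 5 h. The median log2 fold change of the 6 receptors at 5 h was -0.85, beside 0.00 over all genes. Ccr2, the receptor of Ccl2 and Ccl7, was the higher one, at 3.24 ± 0.905 CPM in GFP and 6.63 ± 1.13 CPM in Nur77 cells before LPS (log2 0.99, SE 0.16, edgeR adjusted p = 2.52e-05) and at 3.05 ± 0.242 and 6.06 ± 0.383 CPM at 5 h (log2 0.99, SE 0.17, adjusted p = 2.31e-05). Ccr1, a receptor of Ccl3, Ccl5, Ccl6 and Ccl9, was lower: 39.3 ± 2.87 against 3.04 ± 0.517 CPM at 0 h (log2 -3.68, SE 0.42, adjusted p = 5.32e-07) and 57.3 ± 3.22 against 6.81 ± 1.05 CPM at 5 h (-3.10, SE 0.37, adjusted p = 9.27e-07). At 1 h Ccr1 was at 1.46 to 14.5 CPM in Nur77 libraries and at 28.8 to 31.0 CPM in GFP libraries. Ccrl2, an atypical receptor that binds chemerin, rose with LPS by 5.98 on the log2 scale in GFP and 6.17 in Nur77 cells by 1 h. It was lower in Nur77 cells at 0, 1 and 5 h (-1.35, -1.16 and -1.02), and its 1 h Nur77 libraries ranged from 104 to 328 CPM. The receptor results at 1 h include replicate 2 of the Nur77 line and are not given without it here.

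Ccr9 and Ccr10, receptors of Ccl25 and of Ccl27 and Ccl28, were each lower in Nur77 cells at 1 of the 3 times. Ccr10 differed by -0.78 on the log2 scale at 1 h (edgeR adjusted p = 0.0247). Ccr9, 1 of the 3 called lower at 5 h, was then at 1.29 ± 0.112 CPM in GFP and 0.541 ± 0.178 CPM in Nur77 cells. It had 98 and 36 counts in these groups and at most 3 in any other group. Because Ccr9 passed the filter only through the GFP line at 5 h, where it was high, no test of it is given. The other 9 receptor genes of the list did not pass the filter on low counts. After LPS, 3 of the 6 receptors rose by 5 h in each line, beside 30.6% of all genes called higher in GFP cells and 32.5% in Nur77 cells.

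The remaining CC chemokine genes were nearly silent. Of 12 others listed, Ccl20 and Ccl25 passed the filter, and neither passed the test between the lines at any time (adjusted p 0.474 to 1). Ccl20, a Ccr6 ligand, had 0 counts before LPS in both lines, and was at 2.01 ± 0.201 CPM in GFP and 1.91 ± 0.260 CPM in Nur77 cells at 5 h. Ccl25 was at 1.78 ± 0.333 and 2.03 ± 0.310 CPM at 0 h and at 1.25 ± 0.258 and 1.36 ± 0.167 CPM at 5 h. From 1 to 5 h it fell by 0.54 on the log2 scale in GFP cells (edgeR adjusted p = 0.0384) and fell by 0.61 in Nur77 cells (adjusted p = 0.0162).

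Among 9 tested chemokines of the other families, of 16 listed, 6 were higher and 1 lower in Nur77 cells at 0 h, 5 higher and 2 lower at 1 h and 6 higher and 1 lower at 5 h. The shares of all genes called at these times were 39.8%, 51.2% and 46.4%. Cxcl14, which is among those counted as higher at each time, was at 14.1 ± 1.85 CPM in Nur77 and 0.0692 ± 0.0486 CPM in GFP cells at 5 h (922 and 5 counts). It had at most 14 counts in a GFP group and passed the filter only through the Nur77 groups, where it was high. Its part in these counts is therefore no support for a difference of the family, and no test of it is given. The interferon-inducible Cxcl11 and Cxcl10 were 2.76 and 1.60 higher on the log2 scale at 5 h. Pf4, or platelet factor 4, was 1.30 lower (log2 fold change -1.30, edgeR adjusted p = 1.14e-05). Cx3cl1, the fractalkine gene between Ccl22 and Ccl17, was picked after its values were seen, because of its position. Like Ccl22 it was higher in Nur77 cells at 5 h, at 5.15 ± 0.565 CPM against 2.66 ± 0.475 CPM in GFP cells (log2 0.93, SE 0.21, adjusted p = 0.000555).

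Genes of the path from LPS to chemokine transcription were counted beside the 39.8%, 51.2% and 46.4% of all genes called between the lines at 0, 1 and 5 h. Of 20 tested genes of the LPS receptor and its signalling chain, 6 were higher and 1 lower at 0 h, 8 and 5 at 1 h, and 7 and 5 at 5 h. The kinase gene Ikbke was 1.26 higher on the log2 scale at 0 h (SE 0.14, edgeR adjusted p = 2e-07), and Ticam2, an adaptor of Toll-like receptor 4, was lower at 5 h (-1.27, SE 0.09, adjusted p = 8.54e-12). Of 21 NF-kB, IRF and STAT genes, 11 were higher and 1 lower at 0 h, 8 and 3 at 1 h, and 6 and 8 at 5 h. Nfkbia, the NF-kB inhibitor gene, was 0.73 higher at 0 h (adjusted p = 3.54e-09) and lower at 5 h (-0.58, adjusted p = 7.27e-08), and its rise from 0 to 5 h was smaller in Nur77 cells (difference -1.31, adjusted p = 1.17e-09). Irf1 was lower at 1 h and 5 h (-1.42 and -1.77), the 1 h value with replicate 2 of the Nur77 line included.

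Over the 24 libraries, the genes whose log2 CPM was most like that of each member were found among 9449 genes with at least 10 CPM in a group mean. The correlations describe these libraries, which share the same LPS times and lines. Ccl4 was most like Socs3 (Pearson's r 0.997), Tnf (0.993) and Cxcl2 (0.993), and Tnf went from 21.9 ± 3.91 to 2518 ± 153 CPM by 1 h in GFP cells. Ccl5 was most like Sod2 (0.996), Cd40 and Gbp3, Ccl9 like Sod2 (0.991), M6pr and Slc15a3, and Ccl3 like Rffl (0.994), Csf3 and Sertad2. Ccl22 was most like Cxcl16 (0.992), Enpp4 and Ikbke, Ccl17 like Cers6 (0.994), Syt7 and Rassf4, and Ccl6 like Wdr77 (0.961), Hacd3 and Chsy1. For both Ccl2 and Ccl7 the glucose transporter gene Slc2a1 was among the first 3 (r 0.984 and 0.982), beside Fst and Amn1 for Ccl2 and Atp6v1e1 and Slc31a2 for Ccl7. Slc2a1 was at 661 ± 27.2 CPM in GFP and 444 ± 16.4 CPM in Nur77 cells at 5 h.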

How the data were processed

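RNA was sequenced from 24 libraries, 4 in each of 6 groups that the titles give by line, LPS time and replicate. CASAVA 1.8.2, HISAT2 2.1.0 and the build mm10 appear in the submitters' processing notes; the counting tool, annotation and strand setting were not given in the sources used here. Per its header, the table that the authors deposited holds estimated counts of 42361 RefSeq transcripts, not normalized and in multiples of 0.5. Reads could be counted for several transcripts of a gene, so only the transcript with the highest mean stood for a gene. Of the transcripts, 42203 matched a symbol in RefSeq's table of genes (GRCm38.p6), 65 more did so through GENCODE vM21, and the 93 others held 0.497% of the counts. Coordinates are those of GRCm38, counted from 1.

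Estimated counts were rounded to whole numbers, genes were filtered with filterByExpr by group, and libraries were scaled by TMM (factors 0.896 to 1.14). A model of 6 group means over 24 libraries (18 residual degrees of freedom) was fitted with edgeR 4.0.16 (R 4.3.3; robust quasi-likelihood), with two-sided tests of 12 comparisons, each adjusted by Benjamini-Hochberg over 12213 genes. Standard errors were obtained as the size of the log2 fold change over the root of F. Levels are CPM as mean ± SD or per library. Counting intervals and the floor of 3 counts cover counting error only.

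The 9 members and the gene lists were chosen with earlier results of these data known. Named were the 9 genes, Nr4a1, up to 4 called members of a list and comparison with the smallest adjusted p, and the 3 genes most correlated with each member. Mertk, Cx3cl1 and the genes given as examples of macrophage markers were picked outside this rule, after their values were seen. A list of 13 dendritic cell markers, 6 tested, had 1 higher and 2 lower in Nur77 cells at 0 h, 1 and 1 at 1 h, and 0 and 2 at 5 h. The 14 tested macrophage genes had 1 higher and 9 lower, 1 and 7, and 1 and 9. Over all genes 39.8%, 51.2% and 46.4% were called at these times. Replicate numbers did not pair the samples by the rule used (0 of 15 pairs of groups had every same-number correlation over 0.1). Between the lines at 0 h these correlations were 0.137, 0.17, -0.0119 and 0.146, and 3 GFP libraries matched their own number best, so partial pairing there is not excluded. No 2 libraries of a group agreed within sampling noise. On simulated counts for the 0 h comparison with 12047 genes, edgeR called 96% of the genes changed by 1 on the log2 scale, 99% of those changed by 2, and 10 of 11847 unchanged genes. Each gene was simulated at its mean over all libraries, LPS included, and changed genes were drawn from those with a mean over 1 CPM. These shares therefore do not measure how well changes are found in genes low at 0 h, such as Ccl7, Ccl17 and Ccl22. The alternatives tried were a fit of the compared groups alone, a replicate block, the mean over transcripts, a stricter filter or none, removal of 1 RefSeq transcript from the counts, size factors of DESeq2 in place of TMM, the Wald test of DESeq2 1.42.0 and omission of each library. For levels only, CPM without TMM was tried too.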

Additional observations from a re-analysis of the deposited data

Results flagged for a closer look

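In 8 of 50 sets of 4 libraries looked at, 1 library lay far from the other 3; chance gives about 1 in 20. In the Nur77 line at 1 h this was replicate 2, for Ccl2 (403 CPM against 61.2 to 67.9 in the others), Ccl3 (1958 against 1074 to 1182), Ccl7 (18.6 against 1.26 to 2.88) and Ccl9 (1995 against 1409 to 1491). In the GFP line at 0 h, replicate 1 was the low library for Ccl2 (17.4 CPM against 24.3 to 24.8) and for Ccl9 (783 against 839 to 849). Replicate 1 of the GFP line at 1 h was low for Ccl5 (7.59 CPM against 9.88 to 10.1), and replicate 4 of the Nur77 line at 5 h was low for Ccl6 (19.4 CPM against 22.6 to 23.1).

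The response to LPS differed between the lines in 9 tests, given as the log2 difference, Nur77 minus GFP line. From 0 to 1 h it was 0.86 for Ccl3 and -1.87 for Ccl22. From 0 to 5 h it was 0.83 for Ccl6 and -2.99 for Ccl22. From 1 to 5 h it was -0.42 for Ccl4, -1.06 for Ccl5, 0.93 for Ccl6, -2.20 for Ccl7 and -1.12 for Ccl22.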

How the results depend on the processing

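Over 108 results of the 9 genes (12 comparisons each), 8 alternative settings and 24 omissions of 1 library, 3399 values stayed on their side of the threshold, 20 lost the call, 19 gained it and 0 changed sign with a call. Many of these values had little room to move. Each of the 9 genes had 1 transcript, so the mean over transcripts left its counts as they were, and many omissions were of libraries outside the groups compared. Among the 3399, 15 values of 5 differences that were called in neither fit crossed 0, the farthest being Ccl2 for the difference of the rises from 0 to 1 h (0.85 to -0.35 without Nur77 1 h replicate 2). The count of members called moved by more than 1.5 times in these cases. Between the lines at 0 h it was 4 and fell to 2 without GFP 0 h replicate 4, and at 1 h it was 5 and rose to 8 without Nur77 1 h replicate 2. A fit of the compared groups alone gave 1 in place of 2 for the difference of the responses from 0 to 1 h, 6 in place of 2 for that from 0 to 5 h and 3 in place of 5 for that from 1 to 5 h; without Nur77 1 h replicate 2 the second was 5. Over the omissions the counts ranged from 2 to 5 at 0 h, 5 to 8 at 1 h and 6 to 7 at 5 h between the lines, and for the differences of the responses from 2 to 3, 2 to 5 and 4 to 6. After LPS they stayed, with Ccl17 left out, at 7, 8 and 8 in GFP cells and 7, 8 and 7 in Nur77 cells. With the replicate block the counts of members were those of the main test, 4, 5 and 6 between the lines and 2, 2 and 5 for the differences of the responses; the block took the count over all genes for the difference from 0 to 1 h from 144 to 90 and moved no other by over 1.5 times. That count was also 498 by DESeq2, 95 with no filter, 47 in the fit of the compared groups alone and 74 to 1589 over the omissions (1589 without Nur77 1 h replicate 1). From 0 to 5 h it was 970, or 2084 in the fit of the compared groups alone and 1672 without Nur77 1 h replicate 2; from 1 to 5 h 807, or 1502 and 1262 without Nur77 1 h replicates 1 and 2; and for Nur77 cells from 0 to 1 h 5406, or 3490 in the fit of the compared groups alone. DESeq2 gave no adjusted p for Ccl2. Of 108 levels recomputed without TMM or as the mean over transcripts, 81 stayed within 1 SD and 27 moved by more. The levels as the mean over transcripts had little room to move, as each gene had 1 transcript. The 81 therefore overstate how stable the levels were to leaving out TMM. Among genes of the other lists, 4 values reversed, all without Nur77 1 h replicate 2. Over the omissions Stat2 between the lines at 1 h ranged from -0.25 to 0.11 (0.03 with every library), Ccr1 from 0 to 1 h in Nur77 cells from -0.55 to 1.06 (0.68), Cxcl10 from 1 to 5 h in Nur77 cells from -0.22 to 0.15 (0.04) and Ccr1 for the difference from 1 to 5 h from -0.90 to 0.70 (-0.53). The cause of these shifts was not tested. Depth limits Ccl17, Ccl7, Ccl5 and Ccl22 before LPS, where a group held 0 to 144 counts.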
